A study of Mus musculus with 16 samples.

Results

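The antiviral interferon-stimulated genes described here are 39 mouse genes that cells switch on after sensing type I interferon. They were chosen as a list of gene names, with earlier results of these data known. Shares of members set against all genes therefore describe this list and are no independent support. The probe of each gene was found through the RefSeq accession in the scanner files. All 39 genes had a probe, and 38 of them were well above background on both arrays of at least 1 of the 8 groups. The exception was Oas1g, for which no group reached that level. The list is a small part of the 20284 genes with a named probe, 14094 of which met the same requirement.

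Type I interferon is a secreted warning signal of infected cells. Its receptor activates a complex of STAT and IRF proteins that binds the interferon-stimulated response element in the promoters of these genes. The products detect viral RNA, degrade it, block its translation or stop virus particles from entering or leaving the cell. IRF8 is a transcription factor of monocytes and dendritic cells that can bind the same kind of element or a composite element together with the ETS factor PU.1. C/EBPalpha is a transcription factor of the granulocyte and monocyte lineages.

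The genes were read on 16 Agilent arrays with 1 dye each, 2 in each of 8 groups. The progenitors were monocyte-dendritic cell progenitors (MDPs) and common monocyte progenitors (cMoPs), sorted from the bone marrow of Irf8-deficient (Irf8KO) or wild-type (WT) mice and not treated. The cultured cells were 32Dcl.3, a mouse myeloid progenitor line grown with medium conditioned by WEHI3B cells. They were transduced with 2 retroviral MSCV vectors, 1 carrying the marker hCD8t and 1 puro, and collected 3 days later. The groups received murine IRF8 with the empty puro vector, murine C/EBPalpha with the empty hCD8t vector, both factors, or both empty vectors. Every 32Dcl.3 group therefore carried both vector backbones. The labels give no strain, age or number of mice, so the p-values measure the spread between 2 arrays of 2 experiments.

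Each array had its 75th percentile set to 0 on the log2 scale, so a level of 1 is a signal at 2 times that percentile. This percentile ranged over 67.8 to 81 signal units for MDPs, 455.6 to 567.9 for cMoPs and 147.3 to 460.1 for 32Dcl.3 cells, and 37.27 to 56.24% of probes were well above background. Arrays of a group correlated at 0.9951 to 0.998. The 3 cell types lay on separate slides, and within a slide genotype or vector followed array position, so these cannot be told apart. The median change of all genes was -0.339 in Irf8KO cMoPs when arrays were scaled to their median, and -0.025 by the 75th percentile. With C/EBPalpha these values were -0.448 and -0.14, and with both factors -0.752 and -0.096. The direction of changes smaller than these shifts depends on the scaling.

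The targeted genes were examined before the interferon-stimulated genes. The Irf8 probe had levels of 7.44 and 7.43 in Irf8KO MDPs, against 8.02 and 7.96 in WT MDPs, and of 5.83 and 5.87 in Irf8KO cMoPs, against 7.33 and 7.34 in WT cMoPs. It was lower by -0.55 ± 0.037 and -1.48 ± 0.037 (SE) but stayed well above background, and the labels do not say whether it lies in the deleted part. In 32Dcl.3 cells neither the Irf8 nor the Cebpa probe was above background on any array, those with the transduced cDNAs included, so the probes did not check the vectors. The 7 progenitor markers, Irf8 itself among them, were all above background in all 4 progenitor groups. Their levels differed between genotypes, with 3 higher and 4 lower in Irf8KO MDPs, where 22.8% and 28.6% of all genes were. In Irf8KO cMoPs 1 was higher and 5 were lower, where 22.9% and 31.1% of all genes were. In 32Dcl.3 cells 3 of 7, again with Irf8, were above background on neither array of any group.

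Promoters of 6 of the genes are shown because these genes moved in different directions in the comparisons that follow. RefSeq windows of 250 bases before to 50 after the transcript start (GRCm38.p6) were at hand for 32 of the 39 genes. Dhx58, Oas2, Parp9, Parp14, Rtp4, Usp18 and Zbp1 were not among them. The stretches run 5′ to 3′ from 150 bases before the start to 30 after it, and capitals mark the core of the interferon-stimulated response element, which is GAAA, any 2 bases and GAAA again, or on the other strand TTTC, any 2 bases and TTTC. Ddx58 lies at chr4:40239796-40239975, Samd9l at chr6:3399542-3399721, Isg15 at chr4:156200789-156200968, Oas1a at chr5:120907496-120907675 and the upstream start of Trim30a at chr7:104465164-104465343, all on the minus strand. Ifit1 lies at chr19:34640739-34640918 on the plus strand.
Ddx58: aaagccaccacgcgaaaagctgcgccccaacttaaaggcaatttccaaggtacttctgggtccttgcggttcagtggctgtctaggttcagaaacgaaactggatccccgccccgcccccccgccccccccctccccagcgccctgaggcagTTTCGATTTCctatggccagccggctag
Samd9l: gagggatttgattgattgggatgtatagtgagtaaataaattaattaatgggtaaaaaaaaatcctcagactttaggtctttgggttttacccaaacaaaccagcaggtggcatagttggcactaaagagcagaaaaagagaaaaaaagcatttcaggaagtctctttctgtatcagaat
Isg15: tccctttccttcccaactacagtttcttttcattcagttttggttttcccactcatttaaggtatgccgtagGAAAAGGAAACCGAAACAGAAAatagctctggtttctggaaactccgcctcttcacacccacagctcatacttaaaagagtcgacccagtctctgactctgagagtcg
Ifit1: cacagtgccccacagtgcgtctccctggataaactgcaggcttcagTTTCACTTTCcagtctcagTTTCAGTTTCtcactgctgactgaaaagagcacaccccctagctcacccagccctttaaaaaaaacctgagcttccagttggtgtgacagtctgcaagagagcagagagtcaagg
Oas1a: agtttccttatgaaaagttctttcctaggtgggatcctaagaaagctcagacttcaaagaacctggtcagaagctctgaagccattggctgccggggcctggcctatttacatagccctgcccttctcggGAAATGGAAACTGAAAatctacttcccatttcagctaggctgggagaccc
Trim30a: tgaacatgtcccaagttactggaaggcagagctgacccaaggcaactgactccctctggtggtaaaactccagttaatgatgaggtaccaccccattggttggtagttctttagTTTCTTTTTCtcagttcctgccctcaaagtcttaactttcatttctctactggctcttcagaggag

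The core was found on either strand in the windows of 14 of the 32 genes (43.8%), against 3.99% of 27025 genes with a window. They were Bst2, Ddx58, Eif2ak2, Ifih1, Ifit1, Ifit3, Ifitm3, Isg15, Oas1a, Oas1g, Oas3, Rsad2, Stat2 and Trim30a. Isg15 had 3 overlapping matches in a row, Ifit1 had 2 apart and Oas1a had 2 overlapping ones, while Ddx58 had 1 just past its start. The composite element of ETS and IRF factors, GGAA, any 2 bases and GAAA on either strand, was present for 6 of the 32 genes (18.8%, against 3.16% of all), among them Stat2, where it overlaps the first motif. A core bound by C/EBP factors, TTGC, any 2 bases and AA on either strand, was present for 1 (3.1%, against 12.2%). A match describes letters in the window and is no evidence of binding. Members with and without the core both included genes that rose and genes that fell. In Irf8KO MDPs 9 of 12 tested members with it were higher and 3 lower, and 9 of 18 without it were higher and 3 lower, where 22.8% of all genes were higher and 28.6% lower. In Irf8KO cMoPs the counts were 9 and 3 with it and 13 and 2 without it, where 22.9% of all genes were higher and 31.1% lower.

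The comparison of Irf8KO with WT progenitors asked how these genes read without IRF8. Most of the antiviral genes were higher without Irf8 at both stages, and 4 of them, Rtp4, Ddx58, Oas2 and Samd9l, rose far more than the others. In MDPs 23 of 37 tested members were higher and 6 lower in Irf8KO cells (62.2% and 16.2%), against 22.8% and 28.6% of all 11964 genes. In cMoPs 26 were higher and 6 lower (70.3% and 16.2%), against 22.9% and 31.1% of all genes. The median change of the members was 0.36 in MDPs and 0.35 in cMoPs, and that of all genes was -0.024 and -0.025. Ifit3 and Oas1g were not above background in any progenitor group and were not tested. The cMoP counts include Rsad2 and Ifi44, for which neither genotype was above background there. Oas2, Parp12 and Ifit1 passed the detection requirement only through Irf8KO groups, and Ifi44 only through WT MDPs. That requirement favoured their direction in these and the following counts.

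By the fitted change, at least 2-fold rises made up 10 of the 37 members in MDPs and 11 in cMoPs, against 3.84% and 4.86% of all genes, and at least 2-fold falls 2 and 1 (2.83% and 3.68% of all genes). They include Ifit1, whose bound is under 2-fold at both stages, and in cMoPs Rsad2. The direction was shared between stages for many members. Higher in both were 20 of 37 (54.1%, against 14.2% of all genes), and lower in both were Adar, Ifi44, Ifitm3 and Trim30a (10.8%, against 19.8%). Bst2 and Eif2ak2 were called in opposite directions, and Ifi35 and Zbp1 passed the test at neither stage. When each array was scaled to its median, the cMoP counts became 15 higher and 10 lower. The share of all genes called under another scaling is not given, here or below. Such counts are therefore not set against all genes.

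**Figure D1:**
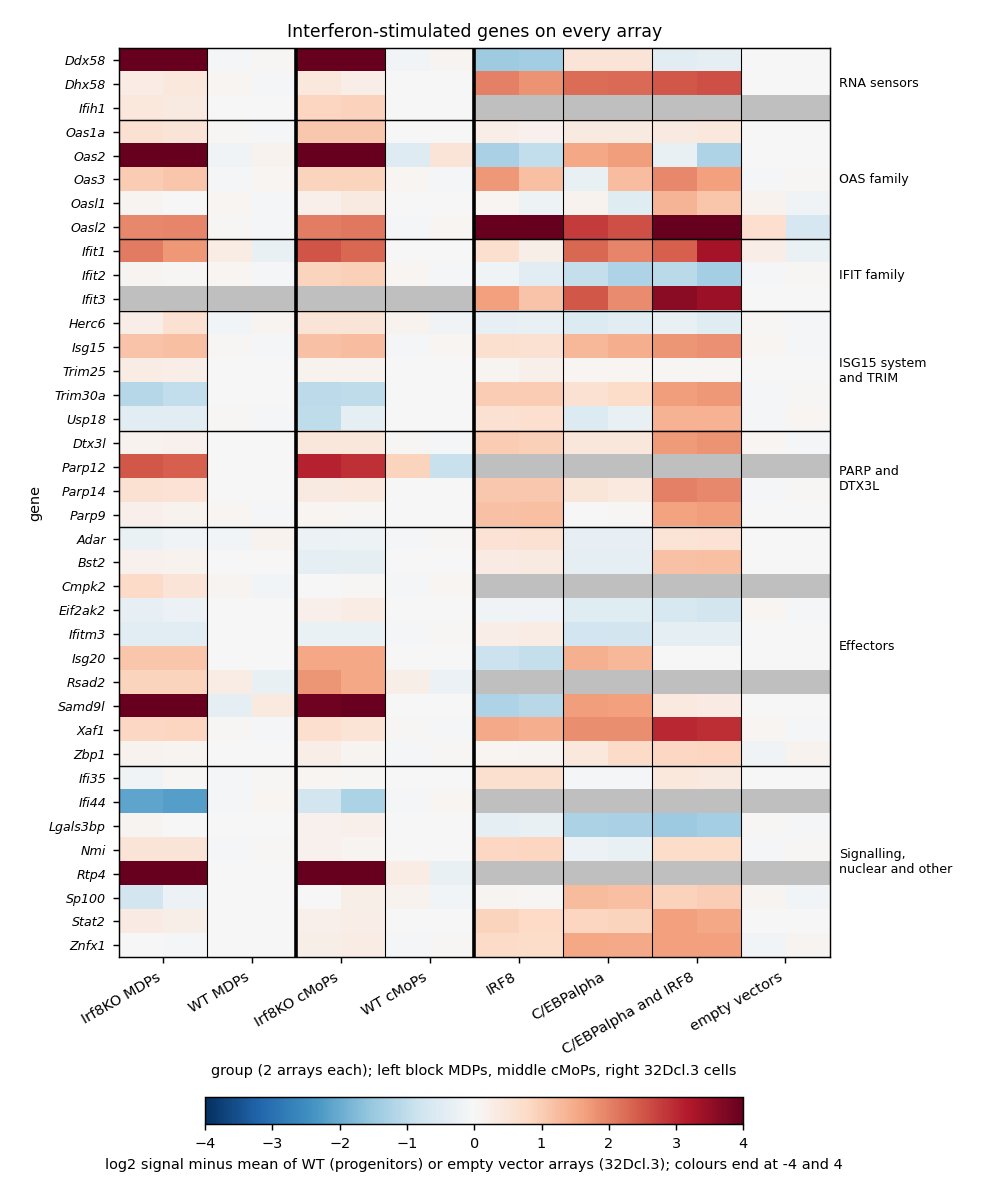
Heat map of the 38 measured genes (rows, by role) on all 16 arrays (columns, 2 per group), as log2 signal minus the mean of the WT arrays of the same stage or of the empty vector arrays; grey marks genes not tested in that cell system. Ddx58, Oas2, Samd9l and Rtp4 are darkest in Irf8KO MDPs and cMoPs, where Ddx58, Samd9l and Rtp4 rose by 3.91 to 5.17 and Oas2 was at least 44.5-fold higher, and Ddx58, Oas2 and Samd9l are blue with IRF8 alone.

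Rtp4, a receptor chaperone gene induced by interferon, had levels of 5.17 and 5.21 in Irf8KO MDPs, against 0.2 and 0.24 in WT MDPs. In cMoPs it read 2.34 and 2.4 in Irf8KO cells and -2.5 and -3.1 in WT cells. Both Irf8KO pairs lay far above their WT pairs, with changes of 4.97 ± 0.15 (adjusted p = 1.85e-09) and 5.17 ± 0.15 (adjusted p = 7.33e-10). Among the rises of all genes these ranked 7 and 4.

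Oas2, an oligoadenylate synthetase that activates RNase L on viral RNA, was not above background on any WT progenitor array. It read 2.84 and 2.79 in Irf8KO MDPs, against -2.83 and -2.56 in WT MDPs, and 2.36 and 2.41 in Irf8KO cMoPs, against -4.09 and -3.05 in WT cMoPs. The gene was thus at least 45.7-fold higher in Irf8KO MDPs and at least 44.5-fold higher in Irf8KO cMoPs. Such a bound sets the Irf8KO mean against the higher of the WT signal and that of the faintest detected probe of each WT array. Oas2 passed the detection requirement only through the Irf8KO groups. That favoured its direction, so no p-value is given.

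Ddx58 encodes RIG-I, the receptor for viral RNA with a free end. It was at 3.45 and 3.41 in Irf8KO MDPs, against -0.65 and -0.58 in WT MDPs, and at 1.75 and 1.8 in Irf8KO cMoPs, against -2.77 and -2.54 in WT cMoPs. Arrays of the genotypes did not overlap, and the changes were 4.05 ± 0.089 (adjusted p = 2.43e-10) and 4.43 ± 0.089 (adjusted p = 5.88e-11). Samd9l, a growth-restraining gene that blocks the translation of some viruses, was at 2.52 and 2.43 in Irf8KO MDPs, against -2.18 and -1.37 in WT MDPs. In cMoPs it was at 1.92 and 1.98 in Irf8KO cells, against -1.99 and -1.94 in WT cells. Its changes were 4.25 ± 0.2 and 3.91 ± 0.2, and a second Samd9l probe gave 4.39 and 4.3. Rises of at least 8-fold at both stages were found for these 4 members and for 22 of all genes (0.184%).

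**Figure D2:**
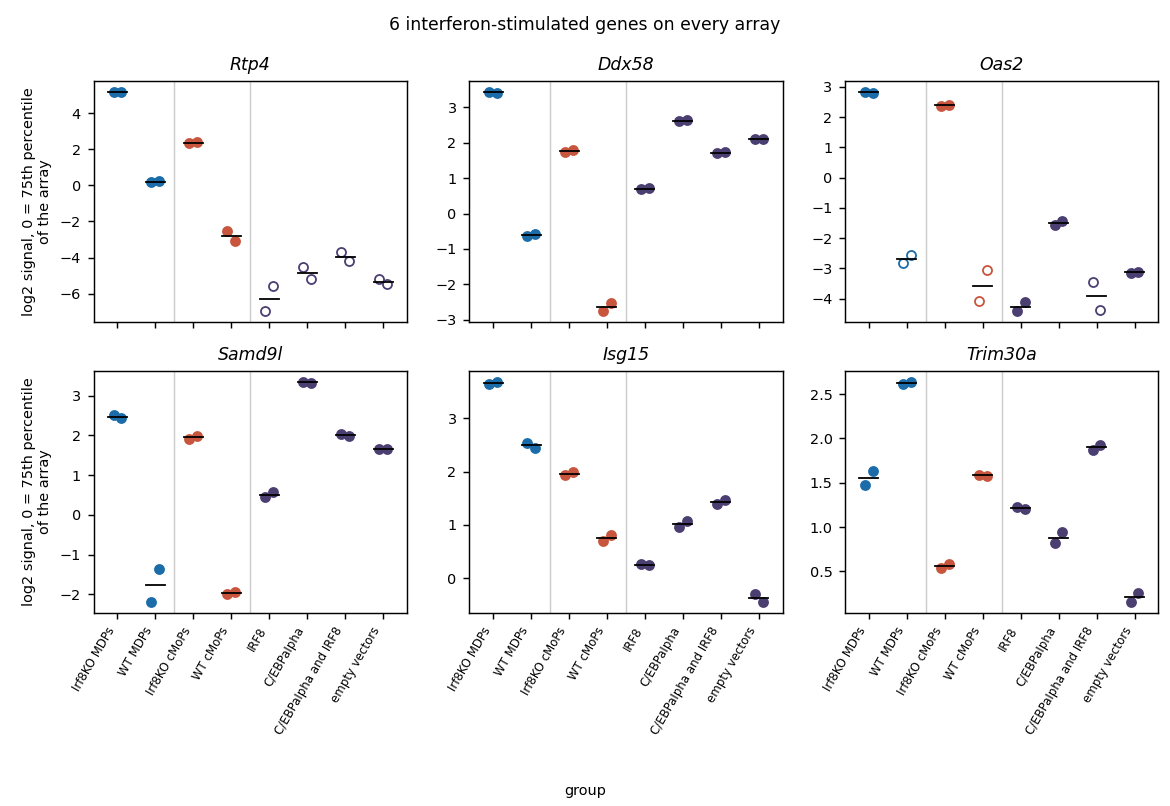
Log2 signal of 6 genes on every array, with 0 at the 75th percentile of the array; dots are arrays, black bars group means, and open dots groups in which fewer than 2 arrays were well above background. Rtp4, Ddx58, Oas2, Samd9l and Isg15 lie higher in Irf8KO than in WT progenitors and Trim30a lower, while among 32Dcl.3 groups Ddx58, Oas2 and Samd9l lie lowest with IRF8 alone.

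The other RNA sensors rose by much less than Ddx58. Ifih1 encodes MDA5, the sensor of long double-stranded RNA, and it rose by 0.39 ± 0.059 in MDPs and 0.89 ± 0.059 in cMoPs. Dhx58 encodes LGP2, which tunes both sensors, and it rose by 0.36 and 0.35. All 3 sensors were thus higher without Irf8 at both stages, where 14.2% of all genes were higher at both.

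Members of the oligoadenylate synthetase family other than Oas2 also rose, over a wide range. Oasl2, an OAS-like gene, read 2.79 and 2.84 in Irf8KO MDPs, against 0.91 and 0.84 in WT MDPs, and 0.51 and 0.58 in Irf8KO cMoPs, against -1.6 and -1.45 in WT cMoPs. It rose by 1.95 ± 0.076 (adjusted p = 1.56e-08) and 2.07 ± 0.076 (adjusted p = 5.47e-09), with no overlap of the genotypes. Oas1a rose by 0.55 and 1.07 and Oas3 by 1.06 in MDPs. In cMoPs Oas3 was not above background in WT cells and was at least 1.85-fold higher in Irf8KO cells. Oasl1, which in mice restrains IRF7, rose by 0.28 in cMoPs, and its change in MDPs was 0.05 (adjusted p = 0.656). Oas1a and Oas1g are close copies, so their probes may share transcripts.

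Of the IFIT genes, whose proteins bind foreign RNA caps, Ifit1 read -1.81 and -2.16 in Irf8KO MDPs, against -3.61 and -4.19 in WT MDPs, where it was not above background. There the gene was at least 1.82-fold higher in Irf8KO cells. In cMoPs it was at least 1.17-fold higher in Irf8KO cells, where 1 of 2 arrays was above background, against neither WT array. Ifit2 rose by 0.93 ± 0.1 in cMoPs (adjusted p = 3.04e-05) and changed by 0.07 in MDPs (adjusted p = 0.631).

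Isg15, the ubiquitin-like protein attached to viral and host targets, read 3.64 and 3.69 in Irf8KO MDPs, against 2.54 and 2.45 in WT MDPs. In cMoPs it read 1.93 and 2 in Irf8KO cells and 0.69 and 0.82 in WT cells. The rises, 1.17 ± 0.058 and 1.21 ± 0.058, differed between the 2 stages by 0.03 ± 0.082 (adjusted p = 0.795). Genes that act on ISG15 or beside it moved in both directions. Usp18, which removes ISG15 and damps the interferon receptor, fell by 0.69 ± 0.18 in cMoPs (adjusted p = 0.00846). Without Irf8KO cMoPs replicate 1 that change was -0.36 (adjusted p = 0.0596), and the change in MDPs was -0.45 (adjusted p = 0.0641). Trim25, a ubiquitin ligase for RIG-I, rose by 0.29 and 0.13, and Herc6, the ISG15 ligase of mice, by 0.51 in cMoPs.

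Trim30a, a TRIM protein that restrains NF-kappaB signalling in mice, went the other way. It read 1.48 and 1.63 in Irf8KO MDPs, against 2.61 and 2.64 in WT MDPs, and 0.54 and 0.58 in Irf8KO cMoPs, against 1.59 and 1.58 in WT cMoPs. The genotypes did not overlap at either stage, and the changes were -1.07 ± 0.061 (adjusted p = 2.54e-07) and -1.03 ± 0.061 (adjusted p = 1.98e-07). Trim30a belongs to a family of near-identical genes, so the probe may also read relatives. Its promoter has the response element core, as do those of Ddx58 and Isg15, which rose.

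The ADP-ribosylation genes were higher or not called. Parp12, a mono-ADP-ribosyltransferase, was not above background in WT progenitors. It was at least 2.82-fold higher in Irf8KO MDPs and at least 3.85-fold higher in Irf8KO cMoPs. The 2 WT cMoP arrays read -3.32 and -5.13. Like Oas2, Parp12 passed detection only through the Irf8KO groups, so no p-value is given. Parp14 rose by 0.6 and 0.37. Dtx3l rose by 0.14 and 0.44, and its partner Parp9 by 0.17 in MDPs, with 0.06 in cMoPs (adjusted p = 0.433).

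Of the 10 tested effector genes, Samd9l included, 6 were higher and 3 lower in Irf8KO MDPs, where 22.8% and 28.6% of all genes were. In Irf8KO cMoPs 5 were higher and 3 lower, where 22.9% and 31.1% of all genes were. The counts of lower genes were near the shares of all genes. Isg20, an exonuclease for viral RNA, read 2.22 and 2.22 in Irf8KO MDPs, against 1.13 and 1.11 in WT MDPs, and 1.76 and 1.75 in Irf8KO cMoPs, against 0.21 and 0.2 in WT cMoPs. It rose by 1.11 ± 0.054 and 1.55 ± 0.054, and Xaf1, a partner of the apoptosis inhibitor XIAP, by 0.83 and 0.6. Rsad2 encodes viperin and lies beside Cmpk2, a nucleotide kinase gene. In MDPs Rsad2 rose by 0.88 and Cmpk2 by 0.64, while in cMoPs Rsad2 was above background in neither genotype and Cmpk2 changed by 0.03 (adjusted p = 0.809).

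Ifitm3, which blocks the entry of enveloped viruses, fell by 0.44 ± 0.037 and 0.26 ± 0.037. Bst2, the tether that holds budding viruses, read 6.21 and 6.16 in Irf8KO MDPs, against 6.06 and 6.01 in WT MDPs, but 4.02 and 4 in Irf8KO cMoPs, against 4.39 and 4.42 in WT cMoPs. It rose by 0.15 in MDPs and fell by 0.39 ± 0.035 in cMoPs (adjusted p = 4.78e-06). Eif2ak2, the kinase PKR, did the reverse, with -0.27 ± 0.067 in MDPs (adjusted p = 0.00599) and 0.26 ± 0.067 in cMoPs. That Eif2ak2 rise in cMoPs was smaller than the shift of all genes on scaling to the median, so its direction depends on the scaling. Adar, an editor of double-stranded RNA, fell by 0.2 and 0.22, calls that were lost under 10 and 7 of 18 alternatives. Without WT MDPs replicate 2 the change in MDPs was -0.08, and the second Adar probe gave -0.02 and -0.03. Zbp1, a sensor that starts necroptosis, gave 0.12 and 0.18 (adjusted p = 0.295 and 0.104).

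Among signalling and nuclear members, Stat2, a subunit of the interferon-activated complex, rose by 0.29 and 0.23, and Nmi, a partner of STAT proteins, by 0.5 and 0.14. Lgals3bp, a secreted glycoprotein, rose by 0.18 and Znfx1, a helicase, by 0.27 in cMoPs. Sp100, a nuclear body protein, read -1.75 and -1.27 in Irf8KO MDPs, against -1.05 and -1.01 in WT MDPs, a fall of 0.48 ± 0.17 (adjusted p = 0.0369) that was lost under 9 of 18 alternatives and was -0.24 without Irf8KO MDPs replicate 1. Ifi44 was at least 2.1-fold lower in Irf8KO MDPs, where it was not above background, and in cMoPs it was above background in neither genotype.

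**Figure D3:**
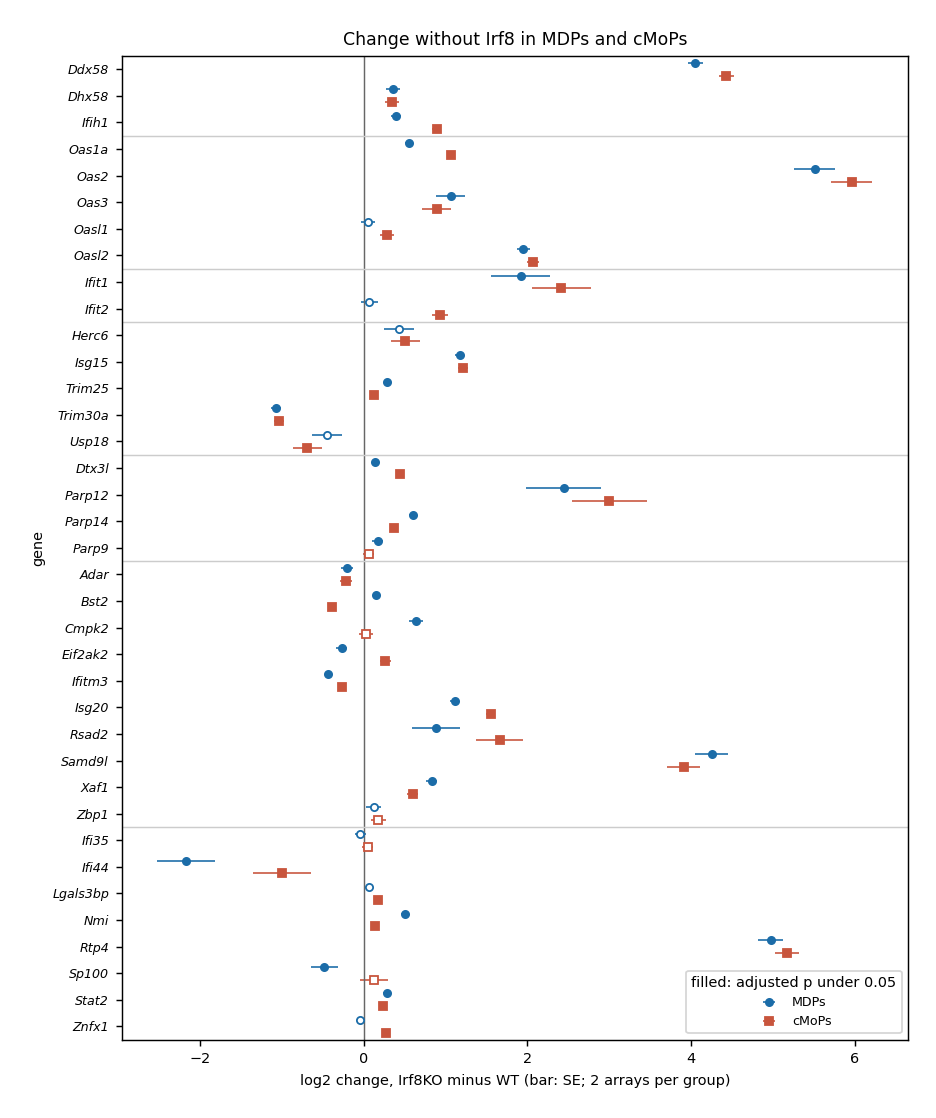
Log2 change of the 37 tested genes, Irf8KO minus WT, in MDPs (blue circles) and cMoPs (red squares), with SE bars; filled symbols passed the adjusted p of 0.05, and fitted values are plotted also where a group was not above background. Rtp4, Samd9l and Ddx58 stand between 3.91 and 5.17 at both stages beside Oas2, which was at least 44.5-fold higher, Trim30a near -1, and most other members between 0 and 2.

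The test of the difference between stages asked whether the signed change without Irf8 was higher or lower in cMoPs than in MDPs. It was higher in cMoPs for 8 of the 37 members and lower for 5 (21.6% and 13.5%, against 11.6% and 13.3% of all genes). Of these differences 0 reached 2-fold in either direction (1.96% and 2.13% of all genes). A higher value is not always a larger effect. Ifitm3 fell less in cMoPs, Bst2 rose in MDPs and fell in cMoPs, and Eif2ak2 did the reverse. Ifit2 differed by 0.86 ± 0.15 (adjusted p = 0.00198), Eif2ak2 by 0.53 ± 0.094 and Oas1a by 0.52 ± 0.062. Ifih1 differed by 0.5, Isg20 by 0.44, Znfx1 by 0.31, Dtx3l by 0.3 and Ifitm3 by 0.18. A second Dtx3l probe gave -0.05, so its difference depends on the probe. In the other direction Cmpk2 differed by -0.61 ± 0.12 (adjusted p = 0.00499), Bst2 by -0.54 ± 0.049 and Nmi by -0.36 ± 0.065. Parp14 differed by -0.22 and Trim25 by -0.16, calls that were lost under 5 and 10 alternatives. Rtp4, Ddx58 and Samd9l did not pass, with differences of 0.2 ± 0.21, 0.38 ± 0.13 and -0.34 ± 0.28, and Oas2 had no measured WT level to set its stages against each other. Scaling to the median gave 2 higher and 8 lower, and normexp background correction 13 and 3. Leaving out 1 array also moved the count of lower members.

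Genes that make or carry the interferon signal were counted apart from the members. Of 25 tested, 9 were higher and 7 lower in Irf8KO MDPs (median change 0.03), where 22.8% and 28.6% of all genes were. In Irf8KO cMoPs 11 were higher and 7 lower (median 0.06), where 22.9% and 31.1% of all genes were. Socs3, a feedback inhibitor of cytokine receptors, rose by 3.33 ± 0.14 in MDPs and was at least 6.76-fold higher in Irf8KO cMoPs. Irf7, a booster of interferon genes, rose by 1.67 ± 0.22 in MDPs and was at least 2.16-fold higher in Irf8KO cMoPs. Ifngr1, a receptor chain for interferon gamma, rose by 1.42 and 1.36, and Irf5 fell by 1.73 and 4.07. Of the interferon genes, the probes of Ifnb1, Ifna4 and Ifng were not above background on any progenitor array. The Ifna2 probe was above it only on both WT cMoP arrays, at -2.58 and -2.88, against -3.25 and -3.98 in Irf8KO cMoPs (adjusted p = 0.114).

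Genotype groups also differed in markers of other cells, and in bulk RNA fewer cells of a type and less RNA per cell cannot be told apart. Summed neutrophil markers, in multiples of the 75th percentile, were 581 to 603 in Irf8KO cMoPs, against 36.8 to 37 in WT cMoPs, with all 8 higher, and 98 to 100 in Irf8KO MDPs, against at most 12.7 in WT MDPs, with 3 higher and 3 lower. Plasmacytoid dendritic cell markers were 105 to 108 in Irf8KO MDPs, against 96.1 to 101 in WT MDPs, and Ccr9 and Klk1 were above background on none of the progenitor arrays. T and NK cell markers were 196 to 203 in Irf8KO MDPs, against 155 to 157 in WT MDPs, and 121 to 125 in Irf8KO cMoPs, against 61.3 to 62.1 in WT cMoPs. Nkg7 alone made up most of each of these sums. Of 4 tested, 3 were higher in Irf8KO MDPs and 1 in Irf8KO cMoPs, where 22.8% and 22.9% of all genes were. Mature monocyte markers were 28.8 to 29 in Irf8KO MDPs, against 11.6 to 11.8 in WT MDPs. Basophil, mast cell and eosinophil markers were 3.38 to 3.69 in Irf8KO MDPs, against 14.9 to 15.3 in WT MDPs. Erythroid markers were 0.398 to 0.433 in Irf8KO MDPs, against 14.3 to 14.9 in WT MDPs, and 0.493 to 0.631 in Irf8KO cMoPs, against 7.73 to 7.74 in WT cMoPs. Their part in the changes of the antiviral genes was not tested.

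The 32Dcl.3 groups asked what IRF8, C/EBPalpha or both did to these genes in cells whose own Irf8 and Cebpa probes were not above background. With IRF8 alone, most antiviral genes rose, but 3 of the 4 genes that had risen most without Irf8 in progenitors fell. Of 32 tested members 20 were higher and 5 lower with IRF8 (62.5% and 15.6%), against 22.7% and 25.4% of all 13339 genes, and the median change was 0.52, against -0.031 for all genes. By the fitted change, at least 2-fold rises made up 8 members, Ifit3 among them, and falls 3 (3.57% and 1.53% of all genes). Cmpk2, Ifi44, Ifih1, Parp12, Rsad2, Rtp4 and Oas1g were not above background on both arrays of any 32Dcl.3 group and were not tested. Ifit1, Ifit3, Oas3 and Oasl2 passed detection only through groups given a factor. That favoured their rises against empty vectors in these and the following counts.

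Ddx58 had levels of 0.68 and 0.71 with IRF8, against 2.12 and 2.1 with empty vectors. Samd9l read 0.44 and 0.57 with IRF8 and 1.67 and 1.66 with empty vectors. Oas2 read -4.42 and -4.1 with IRF8, against -3.14 and -3.12 with empty vectors. None of these groups overlapped, and the changes were -1.41 ± 0.04 (adjusted p = 6.23e-11), -1.16 ± 0.047 (adjusted p = 1.88e-09) and -1.13 ± 0.27 (adjusted p = 0.00474). Isg20 fell by 0.91 ± 0.043 and Lgals3bp by 0.34 ± 0.043. A second probe of Ddx58 gave -1.48.

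Oasl2 read -2.74 and -2.66 with IRF8, against -6.07 and -7.44 with empty vectors. Empty vector cells were not above background for it, and the gene was at least 5.35-fold higher with IRF8. Oasl2 passed detection only through the groups with IRF8, so no p-value is given. Dhx58, at -0.2 and -0.42 with IRF8 and -2.18 and -2.24 with empty vectors, rose by 1.9 ± 0.085 (adjusted p = 4.6e-09). Xaf1 rose by 1.47 ± 0.091, and Oas3 was at least 2.77-fold higher, a call that was lost under 3 of 16 alternatives. The ADP-ribosylation genes rose together, Parp9 by 1.17 ± 0.045, Parp14 by 1.07 ± 0.047 and Dtx3l by 0.98 ± 0.051. Trim30a, which had fallen without Irf8, read 1.23 and 1.21 with IRF8, against 0.16 and 0.26 with empty vectors, a rise of 1.01 ± 0.056.

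Smaller rises with IRF8 were found for Nmi and Stat2 (0.84 each), Znfx1 (0.75), Ifi35 (0.64), Usp18 (0.63), Isg15 (0.62), Adar (0.6), Bst2 (0.34), Ifitm3 (0.28), Oas1a (0.22) and Trim25 (0.16). Herc6, Ifit2, Eif2ak2, Oasl1, Sp100 and Zbp1 did not pass the test, with changes of -0.31 to 0.09. Ifit1 and Ifit3 were above background in neither group, and Ifit3 is among the 20 called and the 8 with a fitted 2-fold rise.

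With C/EBPalpha alone 19 of 32 members were higher and 9 lower (59.4% and 28.1%), against 31.6% and 47.2% of all genes, with a median of 0.46 against -0.14. Scaling to the median gave 15 and 12. Samd9l read 3.35 and 3.32 with C/EBPalpha, against 1.67 and 1.66 with empty vectors, and rose by 1.67 ± 0.047 (adjusted p = 1.25e-11). Oas2 rose by 1.61 ± 0.27, Isg20 by 1.37 ± 0.043 and Ddx58 by 0.53 ± 0.04. These comparisons share the empty vector arrays with those of IRF8.

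Other rises with C/EBPalpha were those of Dhx58 (2.24 ± 0.085), Xaf1 (1.87 ± 0.091), Znfx1 (1.52 ± 0.05), Isg15 (1.39 ± 0.065) and Sp100 (1.24 ± 0.091). Ifit1 was at least 2.46-fold higher, Oasl2 at least 2.07-fold and Ifit3 at least 1.6-fold, each not above background with empty vectors, and with C/EBPalpha Oasl2 and Ifit3 were above it on 1 of 2 arrays. Falls were led by Lgals3bp, at 2.9 and 2.85 with C/EBPalpha, against 4.2 and 4.11 with empty vectors, a change of -1.28 ± 0.043 (adjusted p = 5.31e-11). Ifit2 fell by 1.09 ± 0.15, Ifitm3 by 0.75 ± 0.029, Eif2ak2 by 0.5 ± 0.064, Herc6 by 0.48 ± 0.13 and Usp18 by 0.43 ± 0.1. Bst2, Adar and Nmi fell by 0.27 to 0.35. The other members called higher were Stat2 (0.87), Trim30a (0.67), Zbp1 (0.6), Dtx3l (0.46), Parp14 (0.44), Oas1a (0.35) and Trim25 (0.09). A second Adar probe gave 0.31, so its direction depends on the probe.

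**Figure D4:**
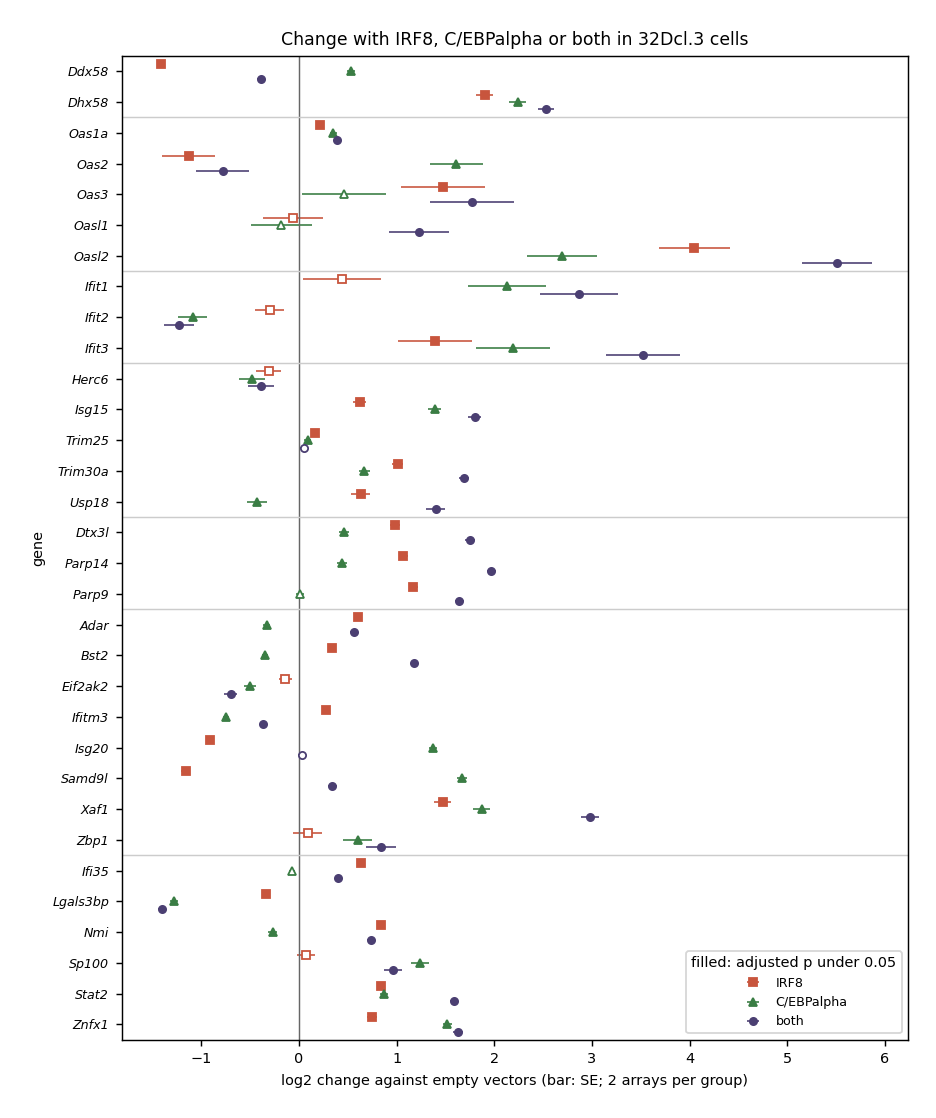
Log2 change of the 32 tested genes against empty vectors with IRF8 (red squares), C/EBPalpha (green triangles) and both (violet circles) in 32Dcl.3 cells, with SE bars; filled symbols passed the adjusted p of 0.05, and fitted values are plotted also where a group was not above background. Ddx58, Oas2, Isg20 and Samd9l lie left of 0 with IRF8 and right of 0 with C/EBPalpha, and Oasl2 was at least 14.7-fold higher with both factors.

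With both factors 23 of 32 members were higher than with empty vectors and 7 lower (71.9% and 21.9%), against 38% and 46.8% of all genes, and 16 were at least 2-fold higher (50%, against 17.5%). The median change was 1.07, against -0.096 for all genes, and scaling to the median gave 16 higher and 12 lower. Oasl2, at -1.34 and -1.14 with both factors, was at least 14.7-fold higher, Ifit1 at least 4.11-fold and Ifit3 at least 4.01-fold. Xaf1 rose by 2.98 ± 0.091, Dhx58 by 2.53 ± 0.085 and Parp14 by 1.97 ± 0.047. Lgals3bp fell by 1.4 ± 0.043, Ifit2 by 1.23 ± 0.15, Eif2ak2 by 0.7 ± 0.064, Herc6 by 0.39 ± 0.13, Ddx58 by 0.39 ± 0.04 and Ifitm3 by 0.37. The other called rises lay between 0.34 and 1.8, apart from Oas3, at least 3.41-fold higher, and Trim25 and Isg20 did not pass. Oas2 changed by -0.78 ± 0.27 (adjusted p = 0.0188), a value that was 0.51 after normexp background correction. Its call was also lost under 4 of 16 alternatives, and the change was -0.31 without 32Dcl.3 C/EBPalpha and IRF8 replicate 2.

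When IRF8 was added to C/EBPalpha, 18 members were higher and 7 lower (56.2% and 21.9%), against 34.4% and 37.9% of all genes, and by the fitted change 12 were at least 2-fold higher and 3 lower (7.45% and 8.47% of all genes). Scaling to the median gave 14 and 11, the percentile over detected probes 20 and 4, and leaving out 32Dcl.3 C/EBPalpha replicate 1 left 4 lower. Samd9l fell to 2.04 and 1.98 with both factors, against 3.35 and 3.32 with C/EBPalpha, a change of -1.33 ± 0.047 (adjusted p = 1.6e-10). Isg20 changed by -1.34 ± 0.043, Ddx58 by -0.91 ± 0.04 and Oas2, above background on 1 of 2 arrays with both factors, by -2.4 ± 0.27. Sp100 fell by 0.28, Eif2ak2 by 0.2 and Lgals3bp by 0.12. Ddx58, Isg20, Oas2 and Samd9l thus fell with IRF8 with and without C/EBPalpha.

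Rises on adding IRF8 to C/EBPalpha were those of Usp18 (1.82 ± 0.1), Parp9 (1.62 ± 0.045), Bst2 (1.54 ± 0.028) and Parp14 (1.53 ± 0.047). Oasl2, above background on 1 of 2 arrays with C/EBPalpha, had a fitted rise of 2.83 ± 0.36. Oasl2, Oas3 and Ifit3 passed detection only through groups with IRF8, which favoured their rises in the counts of this comparison. Bst2 read 5.55 and 5.59 with both factors, against 4.02 and 4.04 with C/EBPalpha. Oasl1 was at least 1.99-fold and Oas3 at least 1.68-fold higher, both among the 12, and the other called rises lay between 0.29 and 1.32. Usp18 read -0.1 and -0.08 with both factors and -2.04 and -1.79 with C/EBPalpha. Its fall with C/EBPalpha alone became 0.03 after normexp background correction.

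Adding C/EBPalpha to IRF8 left 21 members higher and 6 lower (65.6% and 18.8%), against 36.1% and 46.1% of all genes. Scaling to the median gave 11 and 11. Ifit1 was at least 3.47-fold and Ifit3 at least 3.39-fold higher with both factors than with IRF8. Ifit1 and Ifit3 passed detection only through groups with C/EBPalpha, which favoured their rises here. Xaf1 rose by 1.51 ± 0.091, Samd9l by 1.5 ± 0.047, Oasl2 by 1.46 ± 0.36 and Oasl1 by 1.29 ± 0.31. The Oasl1 call was lost under 3 of 16 alternatives, with a change of 0.44 in the deposited values. The other called rises lay between 0.17 and 1.17. Lgals3bp fell by 1.06 ± 0.043, Ifit2 by 0.93 ± 0.15, Ifitm3 by 0.65 ± 0.029 and Eif2ak2 by 0.57 ± 0.064. After normexp background correction the Ifit2 change was -0.06 and its call was lost. Ifi35 (-0.24) and Trim25 (-0.11) had no settled direction, as other scalings turned their sign.

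The interaction test asked whether the joint change differed from the sum of the single ones on the log2 scale. It was above the sum for 10 members and below it for 9 (31.2% and 28.1%), against 23.8% and 31.9% of all genes, shares near the background, and 3 and 2 differed by at least 2-fold in the fitted value (3.97% and 6.27% of all genes). Scaling to the median gave 3 and 17, and the percentile over detected probes 12 and 4. Bst2 exceeded the sum by 1.19 ± 0.039 (adjusted p = 4.8e-10) and Usp18 by 1.19 ± 0.15, while Dhx58 fell short by -1.61 ± 0.12 (adjusted p = 3.89e-07), Oas2 by -1.26 ± 0.39 and Znfx1 by -0.64 ± 0.071. Ddx58 exceeded the sum by 0.5 and Parp14 and Parp9 by 0.46 and 0.45. With arrays scaled to their median these values were 0.11, 0.07 and 0.07, and the calls were lost. Isg20, Xaf1 and Sp100 fell short by -0.43, -0.36 and -0.35, calls that for Xaf1 and Sp100 were lost under 11 and 9 alternatives. Oas2, above background on 1 of 2 arrays with both factors, lost its call under 2, among them leaving out 32Dcl.3 IRF8 replicate 2 (-1.1, adjusted p = 0.0635). Oasl1 was called above the sum, but it was not above background with C/EBPalpha, so its size was not measured. Its call was lost with the deposited values (adjusted p = 0.201) and without 32Dcl.3 empty vectors replicate 1 (adjusted p = 0.0551). The other 7 called members, Dtx3l, Adar, Lgals3bp, Nmi, Ifi35, Oas1a and Trim25, lay between -0.2 and 0.31.

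Of 27 tested interferon pathway genes, 16 were higher and 3 lower with IRF8, where 22.7% and 25.4% of all genes were. With C/EBPalpha 13 were higher and 8 lower (median change 0.12), where 31.6% and 47.2% of all genes were, and with both 19 and 4, where 38% and 46.8% were. With IRF8 the largest changes were those of Jak2 (1.27 ± 0.028), Irf9 (1.22 ± 0.047), Irf5 (1.12 ± 0.043) and Irf7 (0.97 ± 0.14). With C/EBPalpha the named changes were those of Irf7 (2.05 ± 0.14), Ikbke (1.91 ± 0.058) and Mavs (-1.01 ± 0.044). Ifnb1, the interferon beta gene, read -3.01 and -3.14 with both factors and was above background in that group alone. It was at least 4.12-fold higher than with empty vectors, at least 2.21-fold than with C/EBPalpha and at least 3.49-fold than with IRF8. Ifnb1 passed detection only through the group where it was high, so no p-value is given. With both factors Irf9 rose by 2.25 ± 0.047, Irf7 by 2.16 ± 0.14 and Ifnar1, a chain of the interferon receptor, by 1.85 ± 0.053.

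Neutrophil markers moved with C/EBPalpha in these cells. Their summed level was 43.1 to 43.5 with IRF8, 3100 to 3150 with C/EBPalpha and 1770 to 1780 with both, against 68.4 to 69.9 with empty vectors, and all 8 were higher with C/EBPalpha. Plasmacytoid dendritic cell markers were 270 to 283 with IRF8, 388 to 393 with C/EBPalpha and 558 to 584 with both, against 267 to 280 with empty vectors. In the same order, progenitor markers, Irf8 among them, were 86.8 to 87.7, 39.8 to 41 and 168 to 172, against 18.4 to 18.9. Erythroid markers were 2.47 to 2.49, 1.65 to 1.84 and 1.48, against 8.51 to 8.68. Basophil, mast cell and eosinophil markers were 1.62 to 1.67, 16.1 to 16.3 and 2.83 to 2.89, against 7.65 to 7.71. Among the progenitor markers, Csf1r made up most of the sums with IRF8 and with both factors. Cd34 read 1.33 and 1.46 with IRF8 but -1.73 and -1.99 with C/EBPalpha. With both factors Cd34 read -0.75 and -0.94, against 0.34 and 0.37 with empty vectors. The part of these marker shifts in the antiviral genes was not tested.

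**Figure D5:**
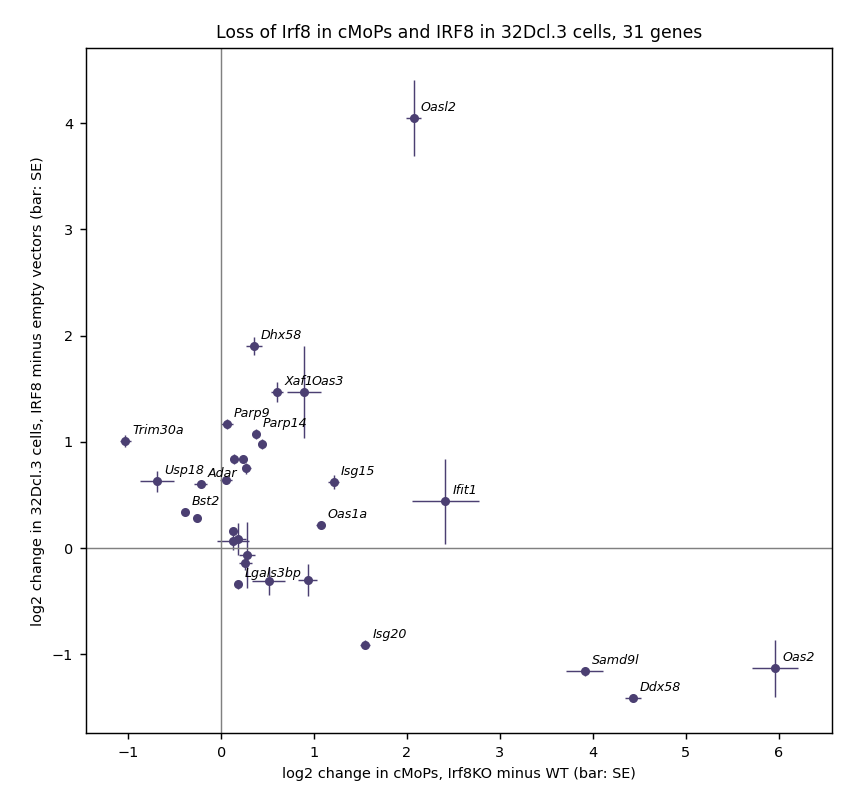
Log2 change of 31 genes in Irf8KO against WT cMoPs (horizontal) and with IRF8 against empty vectors in 32Dcl.3 cells (vertical), with SE bars. Oas2, Ddx58, Samd9l and Isg20 lie at the lower right, Oasl2 at the upper right and Trim30a at the upper left.

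Loss and gain of IRF8 were set side by side for the 31 members tested in both systems. Ddx58, Isg20, Oas2 and Samd9l were higher in both knockouts and lower with IRF8 (12.9% of the 31, against 3.38% of 11209 genes), and the same 4 also fell when IRF8 was added to C/EBPalpha (2.85% of all genes did so). More members, 11 of 31, were higher in both knockouts and higher with IRF8 as well (35.5%, against 5.35%), namely Dhx58, Dtx3l, Isg15, Nmi, Oas1a, Oas3, Oasl2, Parp14, Stat2, Trim25 and Xaf1. Of these, Nmi, Stat2 and Trim25 rose in cMoPs by less than the shift of all genes on scaling to the median. Their direction there depends on the scaling. Median scaling left 15 members higher in cMoPs, against 26, and the count of 11 under it is not given. Adar, Ifitm3 and Trim30a were lower in both knockouts and higher with IRF8 (9.68%, against 4.43%), and 0 of 31 were lower in all 3 comparisons (8.72% of all genes). For Trim30a the changes were -1.07, -1.03 and 1.01. Rtp4 could not be set beside these, since it was not above background on both arrays of any 32Dcl.3 group.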

How the data were processed

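Total RNA was labelled with Cy3 and hybridised to 16 Agilent arrays. The deposited intensity values are those of Agilent Feature Extraction 10.7.3.1, which subtracted background from each spot (gProcessedSignal), per the file headers, and the same deposited files flag spots as well above background, saturated or outlying. The series' deposited table of processed values, an alternative here, was a constant multiple of the MDP and cMoP intensities and was quantile-normalized for 32Dcl.3 cells, as found by comparison with the scanner intensities.

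Outlying spots were dropped, spots of a probe averaged, and each array's 75th percentile subtracted from the log2 intensities. A probe counted as detected where over 0.5 of its spots were well above background, and a gene was read by its brightest probe among those that both arrays of some group detected, separately for progenitors and 32Dcl.3 cells. Of 55681 probes, 26762 had a gene symbol, matched by accession through RefSeq. In each of these systems limma 3.58.1 (R 4.3.3; lmFit and eBayes with trend) fitted 4 group means over 8 arrays, for 11964 progenitor and 13339 32Dcl.3 genes. Calls are at a Benjamini-Hochberg adjusted p of 0.05 over all genes, errors are SE, and every adjusted p is limma's. The fit was tested on simulated data. By rule, errors and adjusted p are given for up to 6 members in each direction with the largest changes past the threshold and above background in at least 1 of the groups compared, with up to 4 pathway genes a comparison. A pathway gene among these is not reported here. The members, roles and lists were chosen with earlier results of these data known. Normexp used the median spot and background signals. Alternatives covered scaling, background, detection, probe choice, the deposited table, a replicate block and each array left out. With 2 arrays a group, the number of arrays limits the precision.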

Additional observations from a re-analysis of the deposited data

Results flagged for a closer look

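In progenitors, the change without Irf8 differed between the stages, by the test of the difference itself, for 11 of the genes singled out (cMoP change minus MDP change, log2). The signed change was higher in cMoPs for Ifit2 (0.86), Eif2ak2 (0.53), Oas1a (0.52), Ifih1 (0.5), Isg20 (0.44) and Znfx1 (0.31). It was lower there for Trim25 (-0.16), Parp14 (-0.22), Nmi (-0.36), Bst2 (-0.54) and Cmpk2 (-0.61). The calls of Trim25 and Parp14 were lost under 10 and 5 alternatives, and those of Eif2ak2, Ifih1, Isg20 and Znfx1 under median scaling. Eif2ak2 and Bst2 were called in opposite directions at the 2 stages. The Eif2ak2 rise in cMoPs was smaller than the shift of all genes on scaling to the median, so its direction depends on the scaling.

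In 32Dcl.3 cells, the effect of IRF8 differed with and without C/EBPalpha for 12 genes. It was higher with C/EBPalpha for Bst2 (1.19), Usp18 (1.19), Ddx58 (0.5), Parp14 (0.46) and Parp9 (0.45). It was lower for Sp100 (-0.35), Xaf1 (-0.36), Isg20 (-0.43), Znfx1 (-0.64), Oas2 (-1.26) and Dhx58 (-1.61). The calls of Xaf1, Sp100 and Oas2 were lost under 11, 9 and 2 alternatives, and those of Ddx58, Parp14 and Parp9 under median scaling. Oasl1 had a fitted value of 1.47 that is no measured size, since it was not above background with C/EBPalpha, and its call was lost under 2 alternatives.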

How the results depend on the processing

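Scaling each array to its median moved the counts most, to 15 higher and 10 lower in Irf8KO cMoPs (26 and 6 by the 75th percentile), 2 and 8 for the stage difference (8 and 5), 12 lower with both factors against empty vectors (7), 11 lower against C/EBPalpha (7), 11 and 11 against IRF8 (21 and 6), and 3 and 17 for the interaction (10 and 9). Normexp gave 13 and 3 for the stage difference. The shares of all genes called under these settings are not given beside the counts. The percentile over detected probes gave 4 lower against C/EBPalpha and 4 for the interaction. Signs turned in 10 cases. For both factors against IRF8, Ifi35 became 0.06 and Trim25 0.18 with that percentile, 0.07 and 0.21 with quantile normalization, and 0.1 and 0.16 in the deposited values. With normexp, Herc6 became 0.1 and Usp18 0.03 for C/EBPalpha, and Oas2 0.51 and Herc6 0.3 for both factors against empty vectors. The cause was not tested. With 1 array left out, 3 to 5 members were lower in the stage difference and 4 to 7 in both factors against C/EBPalpha. The replicate numbers did not pair the arrays (correlations of deviations -0.065 to 0.071). With the replicate block, 23 members were higher and 6 lower in MDPs, 26 and 5 in cMoPs, and 9 and 5 in the stage difference. Of 105 named gene and comparison pairs, 77 kept their call under every alternative run. Levels of genes below background limit what can be read for WT Oas2, Parp12 and Ifit1.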
